A study of Mus musculus with 33 samples.

Results

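The genes described here are 9 genes that mark homeostatic microglia, *P2ry12*, *Tmem119*, *Cx3cr1*, *Csf1r*, *Aif1*, *Siglech*, *Sall1*, *Gpr34* and *Selplg*, out of 41565 named entries of the expression table. They were taken by name, with no measured value in the rule, although earlier results of these data were known when the list was drawn up. They were followed in 33 bulk RNA-seq libraries from 2 parts of the hypothalamus, posterior (PH) and preoptic (POA), of WT C57BL/6 female mice that were intact or had been ovariectomized (OVX). All 9 passed the filter on low values in both regions, with no library at or near the floor at which genes without measurable expression lie (22.4). In the fit with SV1, the first surrogate variable (a covariate estimated from all genes), the log2 fold changes of the 9 genes against intact mice were small and above 0, with a median of 0.093 (PH) and 0.15 (POA) at 14 days and of 0.18 (PH) and 0.14 (POA) at 4 months, against medians within 0.0108 of 0 over all genes tested. Without SV1, 6 of 9 were above 0 in the PH at 14 days and 8 of 9 at 4 months. None of them passed the test across all genes at either time in either region.

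The PH groups held 4 libraries of intact mice, 6 of mice 14 days after OVX and 6 of mice 4 months after OVX, and the POA groups held 5, 6 and 6. Intact females were killed in diestrus before any surgery, so no group carried a sham operation, although the titles of these libraries say sham. The OVX mice had surgery under isoflurane with analgesics. Against intact mice, ovary loss therefore cannot be told apart from surgery and these drugs. The label of 1 POA library gives only the number 14, and its time of 14 days was read from its title. The labels place 2 or 3 libraries of each group in each of 2 batches, and all groups shared WT genotype and sex. The mice at 4 months were also older, so time since OVX and age cannot be told apart. The sources used here do not tie the PH and POA libraries of 1 number to 1 animal, and *P* values measure only the spread between these libraries.

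Microglia are the resident macrophages of the brain parenchyma, and they survey the tissue with motile processes. Their resting program depends on signals from the tissue, among them CSF1 and IL-34 acting on CSF1R, fractalkine from neurons acting on CX3CR1, and TGF-β, which maintains genes such as *P2ry12*, *Tmem119* and *Sall1*. In injury or disease, several genes of this program are known to fall while genes of phagocytosis, antigen presentation and lipid handling rise. In bulk tissue, a change in the number of microglia and a change in the RNA per microglial cell cannot be told apart.

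By role, *P2ry12*, an ADP receptor that guides processes toward injured cells, and *Gpr34*, a receptor for lysophosphatidylserine, are surface receptors. So are *Cx3cr1*, the receptor for fractalkine, and *Csf1r*, the receptor kinase on which microglial survival depends. *Selplg*, the ligand of P-selectin, and *Siglech*, of the Siglec family, are adhesion and recognition molecules. *Tmem119* is a membrane protein of unsettled function, *Aif1* (also called Iba1) a calcium- and actin-binding protein and *Sall1* a transcription factor. *Tmem119* and *Selplg* are neighbors on the minus strand of chromosome 5 (GRCm39, chr5:113931781-113938577 and chr5:113956597-113970705), with 18019 bases between them. *P2ry12* (chr3:59123682-59170429, minus strand) lies inside the span of *Med12l*, and *Gpr34* (chrX:13489625-13507116, plus strand) inside that of *Cask*, each host gene being on the opposite strand. *Cx3cr1* lies at chr9:119877749-119898945 (minus strand), *Aif1* at chr17:35387384-35395053 (minus), *Siglech* at chr7:55417926-55429195 (plus) and *Sall1* at chr8:89753863-89770823 (minus).

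The level of each gene in intact mice was compared per kilobase of its canonical transcript. *P2ry12* was the highest, at 657 ± 149 per kb in the PH (SD, *n* = 4) and 611 ± 96.6 in the POA (SD, *n* = 5). *Cx3cr1* followed at 474 ± 20.9 and 513 ± 23.4, *Csf1r* at 410 ± 63.7 and 452 ± 53.4, and *Selplg* at 392 ± 40.9 and 442 ± 106 (SD; PH, then POA). The intact libraries of *P2ry12* lay wholly above those of *Cx3cr1* in the PH but overlapped them in the POA. *Cx3cr1* overlapped *Csf1r*, and *Csf1r* overlapped *Selplg*, in both regions, so these neighbors in the order are not resolved. *Gpr34* (284 ± 71.4 and 238 ± 57.7), *Siglech* (265 ± 24.0 and 272 ± 21), *Tmem119* (246 ± 28.4 and 267 ± 44.6) and *Sall1* (211 ± 15.2 and 223 ± 7.82) came next, and neighbors in this order also overlapped. In the PH the libraries of *Gpr34* reached into the ranges of *Selplg* and *Csf1r*. *Aif1* stood alone at the bottom, at 40.5 ± 3.67 and 48.7 ± 3.32, and its highest intact library (54.2 per kb) was below the lowest library of every other gene. With the longest transcript instead of the canonical one, *P2ry12* stayed first and *Aif1* last in both regions. For *Aif1* this replaced 3425 bases with 3802, which can only lower its level per kb. No shorter transcript was tried, so its place at the bottom holds for these lengths only.

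The sequence around the annotated start of transcription is shown for 4 of the genes, because PU.1, the factor that specifies macrophages and microglia, binds sites with the core letters GAGGAA. RefSeq promoter windows (GRCm38.p6, 250 bases before to 50 after the start) were at hand for 5 of the 9 genes, in 7 windows. The core was found in the windows of *Aif1*, beginning 7 bases before the start, and of *Siglech*, beginning 4 bases before it. In each it lay on the strand opposite to the gene and reads as TTCCTC in gene orientation. The windows of *P2ry12* and *Cx3cr1* are shown for comparison and hold no match, and the 3 windows of *Sall1* held none either. Each line runs 5′ to 3′ in the gene's direction, from 60 bases before the start to 10 bases after it, with the match in capitals. The regions are chr17:35176043-35176112 (minus strand) for *Aif1*, chr7:55768124-55768193 (plus) for *Siglech*, chr3:59262976-59263045 (minus) for *P2ry12* and chr9:120068287-120068356 (minus) for *Cx3cr1*.
Aif1: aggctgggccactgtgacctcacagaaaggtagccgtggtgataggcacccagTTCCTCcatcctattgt
Siglech: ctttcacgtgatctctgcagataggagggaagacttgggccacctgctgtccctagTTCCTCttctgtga
P2ry12: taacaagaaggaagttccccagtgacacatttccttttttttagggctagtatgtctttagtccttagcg
Cx3cr1: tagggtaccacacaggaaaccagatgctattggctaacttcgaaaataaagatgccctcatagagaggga
Of 32851 mouse promoter windows of this length, 28.3% held GAGGAA on either strand. The composite site of PU.1 and IRF factors (in 2.72% of windows) and the AP-1 site (TGANTCA, in 7.81%) matched none of the 7 windows.

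Of the libraries, the PH library of replicate 5 at 14 days stood apart for these genes. SV1 in the PH was 0.785 in this library, against -0.311 to 0.195 in the other PH libraries. Every PH fit with SV1 therefore adjusted largely for this library. In the POA, SV1 was instead 0.187 to 0.352 in the first batch and -0.322 to -0.125 in the second. Replicate 5 at 14 days in the PH held the highest *P2ry12* value of all 33 libraries (3017) together with the lowest *Tmem119* (230), *Cx3cr1* (1316) and *Sall1* (902) values. It is named where other results rest on it. The values are normalized, and the read depth of the libraries is unknown. The values of each gene in each library are shown in the plot of the 9 genes by group and batch.

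**Figure D1:**
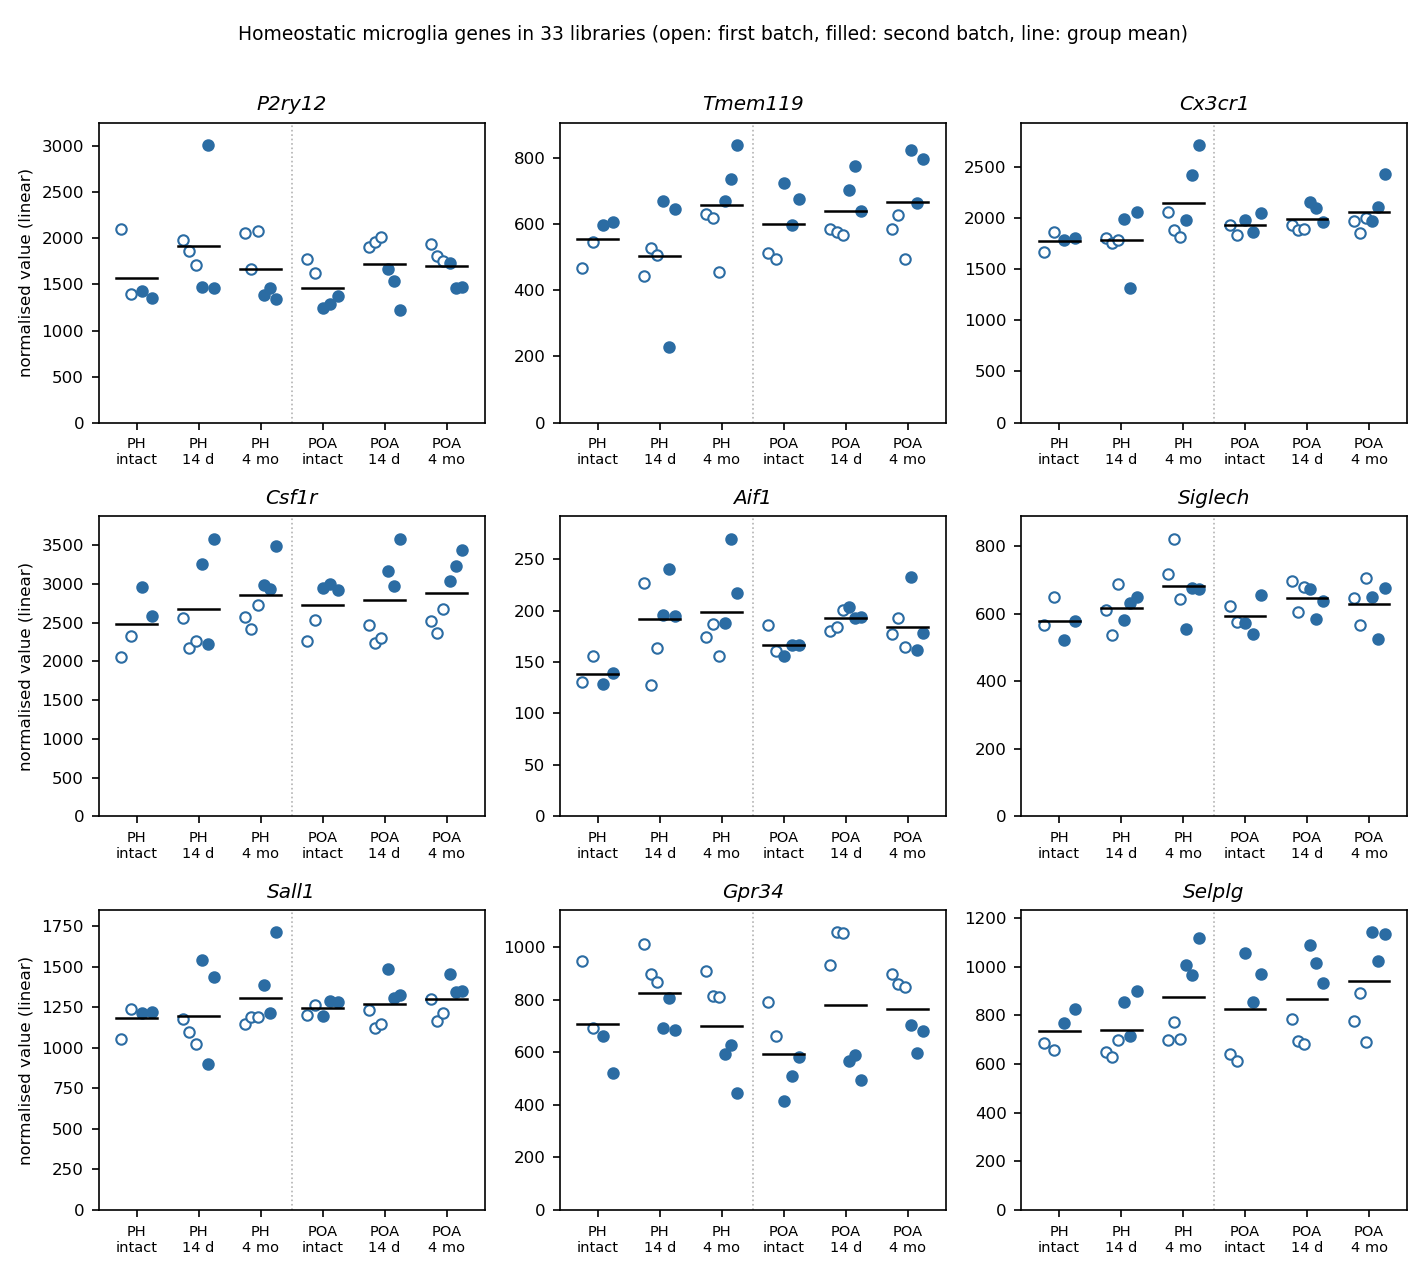
Normalized values of the 9 genes on a linear axis that starts at 0, 1 point per library, by region and group (open points, first batch; filled points, second batch; line, group mean). Most 4-month values of *Cx3cr1* and *Aif1* in the PH lie above the intact ones, whereas *Gpr34* and *Selplg* separate more by batch than by group.

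In the PH at 4 months, *Aif1* and *Cx3cr1* showed the largest differences in relation to their errors. *Aif1* was 131, 156, 128 and 140 in the 4 intact libraries and 155 to 270 with a median of 187 in the 6 libraries at 4 months. At 4 months, 5 of 6 libraries exceeded every intact one, and the sixth lay just under the highest of them. Its log2 fold change was 0.50 (95% interval, 0.14 to 0.87), with an adjusted *P* of 0.636 by limma.

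*Cx3cr1* was 1672, 1858, 1782 and 1807 in intact mice and 1819 to 2715 with a median of 2022 at 4 months, again with 5 of 6 libraries above every intact one. Its log2 fold change was 0.23 (0.06 to 0.39, limma adjusted *P* = 0.636). *Siglech* was 565, 649, 523 and 577 in intact mice and 555 to 821 with a median of 673 at 4 months, 4 of 6 libraries lying above the intact range. Its log2 fold change was 0.23 (0.011 to 0.45, limma adjusted *P* = 0.792). These 3 were the only members with an unadjusted *P* under 0.05, all higher (3 of 9, against 2.97% of all 21839 genes higher and 3.13% lower). This count was 5 with SV1 and batch together, 6 after removal of the GC trend of each library and 1 without a covariate.

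The other 6 members had log2 fold changes from 0.0086 to 0.22 in the PH at 4 months, with intervals that all included 0. *Selplg* (0.22), *Csf1r* (0.18), *Tmem119* (0.17), *P2ry12* (0.14) and *Sall1* (0.10) were above 0. For *Tmem119*, 467, 547, 597 and 606 were measured in intact mice and 457 to 840 at 4 months, and 5 of 6 libraries exceeded the intact range while the sixth lay below it. *Gpr34* was level at 0.0086 (-0.33 to 0.35), with 948, 694, 661 and 522 in intact mice and 444 to 909 at 4 months, and its sign was negative with batch in place of SV1 and without any of 4 single libraries. At an adjusted *P* under 0.05, 0 of 9 members were called, against 0.0275% of all genes higher and 0.00458% lower. All 9 fold changes were above 0, against 47.1% of all genes, and no member had its 4-month libraries wholly above the intact ones, against 0.554% of all genes. Within the first batch the median of the 9 was 0.15 with 9 above 0, and within the second it was 0.23 with 8 above 0.

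Markers of other cells moved beside these genes in the PH at 4 months. All 5 red-cell genes were higher at an unadjusted *P* under 0.05 (median log2 fold change, 1.37), *Alas2* of heme synthesis being called (1.37, limma adjusted *P* = 0.0302), and their summed level was 6507 to 8426 in intact mice and 12093 to 37251 at 4 months. Of 5 endothelial genes, 3 were higher at an unadjusted *P* under 0.05, led by *Flt1* (0.59, limma adjusted *P* = 0.225), with a summed level of 7246 to 7634 in intact mice and 8343 to 11344 at 4 months. Their part in the values of the 9 microglial genes was not tested. Of 8 genes of border-associated macrophages, which share several microglial genes, 1 was above 0 (median, -0.15), with sums of 949 to 1355 in intact mice and 911 to 1193 at 4 months. Genes of blood monocytes and neutrophils summed to 289 to 362 and 279 to 467 over 7 genes, of which *Retnlg* was near the floor in every library. Genes of lymphocytes summed to 313 to 375 and 335 to 469 over 8 genes, with *Nkg7* near the floor throughout. In every library, only 1 of the 7 genes of monocytes and neutrophils and 0 of the 8 of lymphocytes reached 2 times the floor. Of the 8 genes of border-associated macrophages, 4 did. These sums therefore include values under 2 times the floor.

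**Figure D2:**
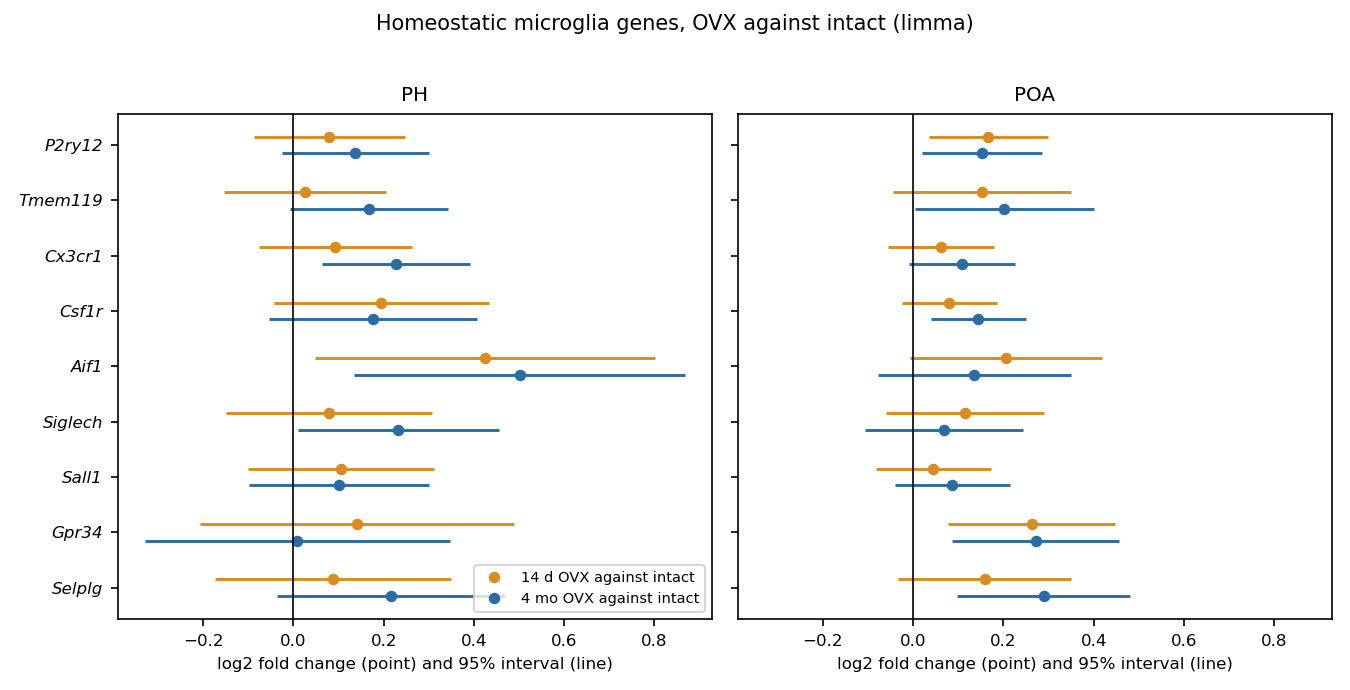
Log2 fold change of each gene against intact mice with its 95% interval (limma), in the PH (left) and POA (right), at 14 days (orange) and 4 months (blue). All 36 points lie above 0, and most intervals cross it.

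In the PH at 14 days, *Aif1* again had the largest difference. It was 227, 128, 163, 196, 241 and 195 in the 6 libraries, and 5 of them exceeded every intact library (128 to 156) while the sixth lay just below the lowest one. Its log2 fold change was 0.43 (0.048 to 0.80, limma adjusted *P* = 1.00), and it was the only member at an unadjusted *P* under 0.05 (1 of 9 higher and 0 lower, against 1.56% and 1.47% of all genes). No member was at that level without intact replicate 1 or 3, or without replicate 1, 4 or 6 at 14 days. With the replicate number as a block, *Gpr34* (0.34, unadjusted *P* = 0.0056 by limma) was at that level in place of *Aif1* (0.34, unadjusted *P* = 0.051 by limma). *Gpr34* was 686 to 1013 with a median of 837, against 522 to 948 in intact mice, and its log2 fold change was 0.14 (-0.21 to 0.49). *Csf1r* was 2179 to 3580 with a median of 2414, against 2051 to 2958, with 0.20 (-0.043 to 0.43).

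The other members were within 0.11 of 0. *P2ry12* (0.079), *Cx3cr1* (0.093), *Sall1* (0.11), *Selplg* (0.088), *Siglech* (0.078) and *Tmem119* (0.026) had intervals on both sides of 0. Of all genes, 0% were called higher and 0% lower, and 0 of 9 members were called. All 9 fold changes were above 0 (49.4% of all genes), but this count depended on the covariate. Without SV1, 6 of 9 were above 0, and *Tmem119* was at -0.21. Within the first batch the median was 0.016 with 6 above 0, and within the second it was 0.097 with 7 above 0. Without replicate 5 the fit gave a median of 0.093, 9 above 0, and 2 members at an unadjusted *P* under 0.05, *Aif1* (0.38) and *Gpr34* (0.21). No member was wholly above the intact libraries, against 0.279% of all genes. Beside these values, all 5 red-cell genes were above 0 (median, 0.60), with sums of 6507 to 8426 in intact mice and 6965 to 14599 at 14 days, and 4 of 5 endothelial genes were above 0 (median, 0.26), with sums of 7246 to 7634 and 7422 to 9887. Their part was not tested.

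In the POA at 4 months, *Selplg* and *Gpr34* had the largest log2 fold changes. *Selplg* was 640, 611, 1058, 854 and 971 in the 5 intact libraries and 690 to 1140 with a median of 958 at 4 months. The wide intact range followed the batches, the first 2 values being from the first batch and the last 3 from the second. The log2 fold change of *Selplg* was 0.29 (0.098 to 0.48, limma adjusted *P* = 0.335).

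*Gpr34* was 791, 662, 417, 508 and 582 in intact mice and 597 to 898 with a median of 776 at 4 months, 3 of 6 libraries lying above the intact range. Its log2 fold change was 0.27 (0.085 to 0.46, limma adjusted *P* = 0.359). *Csf1r* was 2257, 2533, 2944, 2996 and 2925 in intact mice and 2371 to 3432 with a median of 2854 at 4 months, and its log2 fold change was 0.14 (0.039 to 0.25, limma adjusted *P* = 0.388). The 2 remaining members at an unadjusted *P* under 0.05 were *P2ry12* at 0.15 (0.020 to 0.29), with 1781, 1623, 1243, 1286 and 1378 in intact mice and 1467 to 1943 at 4 months, and *Tmem119* at 0.20 (0.0035 to 0.40), with 514, 494, 726, 598 and 677 in intact mice and 495 to 826 at 4 months.

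In all, 5 of 9 members were higher at an unadjusted *P* under 0.05 and 0 lower, against 4.08% and 4.42% of all 21185 genes. This count was 3 with SV1 and batch together, 1 with the replicate number as a block and 0 without a covariate. The 0 members called at an adjusted *P* under 0.05 stand against 0.0802% of genes called higher and 0.0142% lower. *Aif1* (0.14), *Cx3cr1* (0.11), *Sall1* (0.087) and *Siglech* (0.068) had intervals that included 0. *Aif1*, which led in the PH, was 156 to 186 in intact POA libraries and 161 to 233 at 4 months, with 2 of 6 libraries above the intact range. All 9 fold changes were above 0 (46.4% of all genes), none with libraries wholly above the intact ones (0.411% of all genes). The median was 0.092 with 8 above 0 within the first batch and 0.19 with 9 above 0 within the second. Red-cell genes were higher here too (5 of 5 at an unadjusted *P* under 0.05; median, 0.85; sums of 7050 to 16431 in intact mice and 9569 to 22657 at 4 months), as were 2 of 5 endothelial genes, 1 other being lower, and their part was not tested. All 5 genes of mural cells and fibroblasts were above 0 (median, 0.21), 1 of them, *Rgs5*, at an unadjusted *P* under 0.05.

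In the POA at 14 days, *Gpr34* and *P2ry12* were the members at an unadjusted *P* under 0.05 (2 of 9 higher and 0 lower, against 2.82% and 3.32% of all genes). *Gpr34* was 932, 1056, 1052, 569, 588 and 493, so the 3 libraries of the first batch all exceeded the intact maximum of 791 and the 3 of the second did not. For *Gpr34* the log2 fold change was 0.26 (0.077 to 0.45, limma adjusted *P* = 0.797). *P2ry12* was 1906, 1957, 2011, 1673, 1543 and 1223, with a fold change of 0.17 (0.034 to 0.30, limma adjusted *P* = 0.797). *Aif1* was 180 to 204, tighter than in any other group, with 4 of 6 libraries above the intact maximum of 186 and a fold change of 0.21 (-0.0065 to 0.42).

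The remaining members at 14 days in the POA ran from 0.044 for *Sall1* to 0.16 for *Selplg*. No member was called (0% of all genes higher and 0.00472% lower). All 9 were above 0 (47.7% of all genes) and none was wholly above the intact libraries (0.26% of all genes). The median was 0.14 with 7 above 0 within the first batch and 0.13 with 9 above 0 within the second. The 2 members at an unadjusted *P* under 0.05 were 1 with the replicate block and 0 without a covariate. Red-cell genes were above 0 here too (5 of 5, median, 0.47), with sums of 7050 to 16431 in intact mice and 9129 to 17240 at 14 days. Pituitary genes had a median of 2.26 (5 of 5 above 0, 3 at an unadjusted *P* under 0.05). Only 1 of these 5 genes reached 2 times the floor in every library. Of 8 genes of border-associated macrophages, 7 were above 0 (median, 0.16), against a median of 0.15 for the members. Genes of oligodendrocytes (0 of 5 above 0, median, -0.16) and neurons (1 of 7, median, -0.054) went the other way. The part of these other cells was not tested.

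Between 14 days and 4 months no member was called. Both OVX groups were compared with the same intact libraries, so their values are not independent and the direct comparison is given by itself. In the PH, 6 of 9 log2 fold changes of 4 months against 14 days were above 0 (47.2% of all genes), from -0.13 for *Gpr34* to 0.15 for *Siglech*, with a median of 0.077. Of all genes, 0.00916% were called higher and 0% lower. In the POA, 6 of 9 were above 0 (48.9% of all genes), from -0.071 for *Aif1* to 0.13 for *Selplg*, with a median of 0.043 that was negative, at -0.024, within the first batch. Of all genes, 0.0236% were called higher and 0.00472% lower. None of the 9 had an unadjusted *P* under 0.05 in either region, where every interval included 0.

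The difference between the regions was tested in a fit of all 33 libraries and 21968 genes. No member passed at either time, at an adjusted or an unadjusted *P*. Of all genes, 0.00455% at 14 days and 0.0091% at 4 months were called, and 2.98% and 3.61% had an unadjusted *P* under 0.05. The largest difference was that of *Aif1* at 4 months, 0.36 higher in the PH (-0.038 to 0.76; unadjusted *P* = 0.0744 and adjusted *P* = 1.00 by limma). For *Gpr34* it was 0.28 lower in the PH, a difference of -0.28 (-0.69 to 0.13). The medians over the 9 members were -0.0056 at 14 days and 0.0030 at 4 months.

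The mean log2 value of the 9 genes describes each library as a whole. In the PH it was 9.674 to 9.699 in the 4 intact libraries (9.688 ± 0.0116, SD, *n* = 4), an average over members that differed in opposite directions between the batches. It was 9.673 to 9.926 at 14 days and 9.783 to 10.01 at 4 months. In the POA it was 9.686 to 9.835 in intact mice, 9.825 to 9.968 at 14 days and 9.811 to 10.03 at 4 months, so these groups overlapped. The same mean was not computed for other gene sets. The lowest of the 14-day PH libraries were replicates 2 and 5.

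Differences between the 2 batches were larger than those after OVX for several of the genes. In the POA, 7 of 9 members differed between the batches at an adjusted *P* under 0.05 in a limma fit with group and batch, 5 higher in the second batch and 2 lower, against 20.2% and 19.9% of all genes. The higher ones were *Selplg* (log2 difference, 0.53 ± 0.063, SE), *Csf1r* (0.38 ± 0.049), *Tmem119* (0.37 ± 0.067), *Sall1* (0.15 ± 0.049) and *Cx3cr1* (0.12 ± 0.046). The lower ones were *Gpr34* (-0.61 ± 0.084) and *P2ry12* (-0.34 ± 0.061). In the POA, *Gpr34* was 662 to 1056 in the 8 libraries of the first batch and 417 to 705 in the 9 of the second. *Aif1* (0.028) and *Siglech* (-0.051) were not called. The call of *Cx3cr1* was lost without any of 13 single libraries, and the other 6 held without each of the 17.

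In the PH, *Gpr34* (-0.48 ± 0.099) and *Selplg* (0.37 ± 0.074) were called between the batches, 1 lower and 1 higher, against 0.499% and 0.797% of all genes, and each lost its call without any of 10 single libraries. Without replicate 5 at 14 days, 24.5% of all genes and 6 of 9 members were called, with *P2ry12* at -0.38, *Tmem119* at 0.37, *Csf1r* at 0.38 and *Sall1* at 0.28 in addition.

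The direction of the batch difference ran with the GC content of the canonical transcript. In the POA, *Gpr34* (36.4% GC) and *P2ry12* (38.7%) were lower in the second batch, *Siglech* (46.5%) and *Aif1* (48.3%) differed little, and *Cx3cr1* (49.6%), *Sall1* (52.3%), *Csf1r* (53.6%), *Selplg* (58.6%) and *Tmem119* (59.0%) were higher in it. Across all genes with a GC value the correlation of the batch difference with GC was 0.434 in the PH (21382 genes) and 0.622 in the POA (20748 genes), genes not being independent replicates. Within libraries, each gene's deviation from its mean in the region was correlated with GC. This correlation was negative in all 16 libraries of the first batch, -0.476 to -0.0278, and positive in 16 of 17 of the second, 0.232 to 0.473. The exception was replicate 5 at 14 days in the PH, at -0.453.

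When the GC trend of each library was removed, a step chosen after seeing the data, the correlation was -0.0222 (PH) and -0.0376 (POA). The step itself takes this correlation away, so these values are no test of it. The POA difference of *P2ry12* was then -0.11, that of *Tmem119* 0.028 and that of *Sall1* 0.066, and these were no longer called. *Gpr34* (-0.36, limma adjusted *P* = 0.00539), *Csf1r* (0.25, limma adjusted *P* = 9.9e-04), *Selplg* (0.20, limma adjusted *P* = 0.0416) and *Cx3cr1* (0.13, limma adjusted *P* = 0.0493) were still called, against 19% of the 20748 genes with a GC value. In the PH, *Gpr34* (-0.37, limma adjusted *P* = 0.086) and *Selplg* (0.19, limma adjusted *P* = 0.266) were not, and 0.369% of the 21382 genes were. With the same step and SV1, all 9 fold changes against intact mice were above 0 at both times in both regions.

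**Figure D3:**
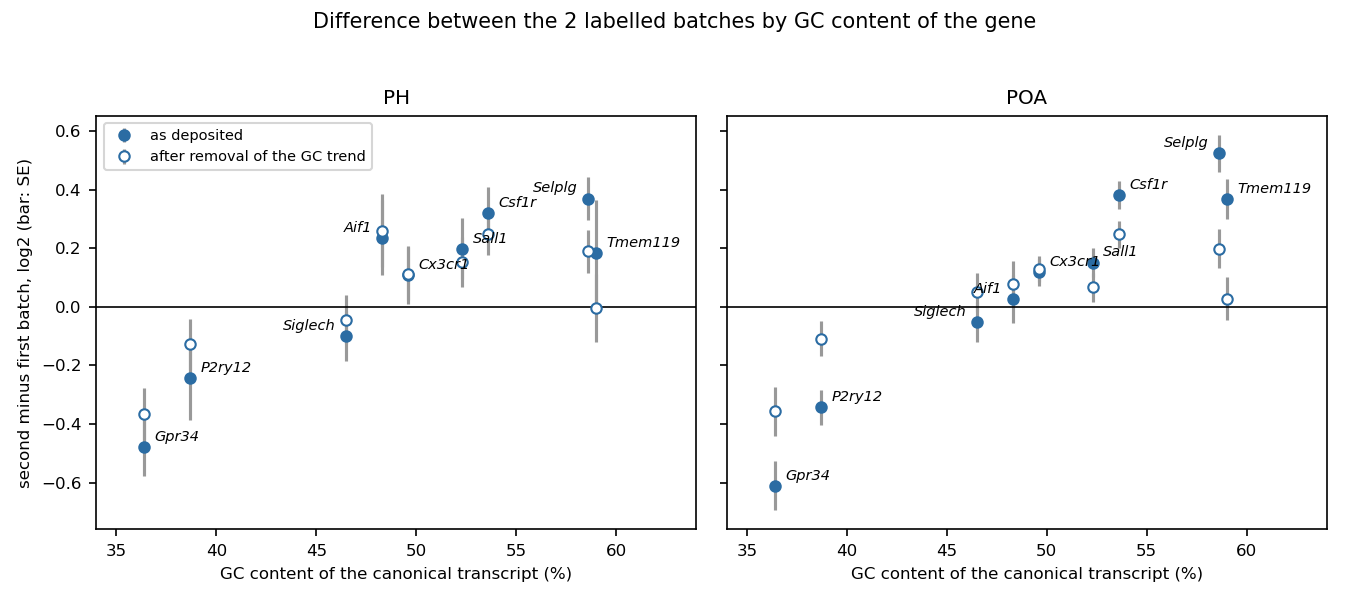
Difference of each gene between the batches (log2, second minus first, bars are SE) against the GC content of its canonical transcript, as deposited (filled) and after removal of the GC trend of each library (open). *Gpr34* and *P2ry12*, at 36.4% and 38.7% GC, lie below 0 and *Selplg* and *Tmem119*, at 58.6% and 59.0%, above it.

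The 9 genes did not vary as 1 block across libraries. *Tmem119*, *Selplg*, *Csf1r*, *Sall1* and *Cx3cr1* were positively correlated with each other (Pearson's *r* of log2 values, 0.619 to 0.892 over 10 pairs in 16 PH libraries and 0.56 to 0.945 in 17 POA libraries). *P2ry12* and *Gpr34* were positively correlated with each other (PH, 0.712, and POA, 0.933) and negatively with the first 5 (-0.861 to -0.558 in the PH and -0.77 to -0.263 in the POA). The 2 sets were named after these correlations were seen, and the libraries share batch and group. The highest pair was that of the neighbors *Tmem119* and *Selplg* in the POA (0.945).

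With group and batch means removed, the first 5 in the PH were correlated at 0.597 to 0.894 with each other and at -0.895 to -0.399 with *P2ry12* and *Gpr34*. These values rested in large part on replicate 5 at 14 days, and without it they were -0.0762 to 0.655 and -0.669 to -0.084. In the POA these ranges were -0.571 to 0.827 and -0.716 to 0.521, with *Tmem119* and *Selplg* at 0.827 and *P2ry12* and *Gpr34* at 0.695. Across libraries *P2ry12* correlated with its host *Med12l* at 0.00675 (PH) and 0.584 (POA), and *Gpr34* with its host *Cask* at 0.631 and 0.607. *Csf1r* (chr18:61229714-61266535, plus strand) overlaps the end of *Hmgxb3* on the opposite strand, and this pair was at 0.7 and 0.713. The pairs of *Aif1* and *Siglech* ran from -0.162 to 0.463 in the PH and from -0.0911 to 0.416 in the POA. These pairs were taken with the group and batch means kept. Without replicate 5 at 14 days, *Aif1* in the PH was then correlated at 0.469 (*Sall1*) to 0.725 (*Cx3cr1*) with each of the first 5. With group and batch means removed as well, these values were 0.0205 (*Selplg*) to 0.389 (*Cx3cr1*).

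**Figure D4:**
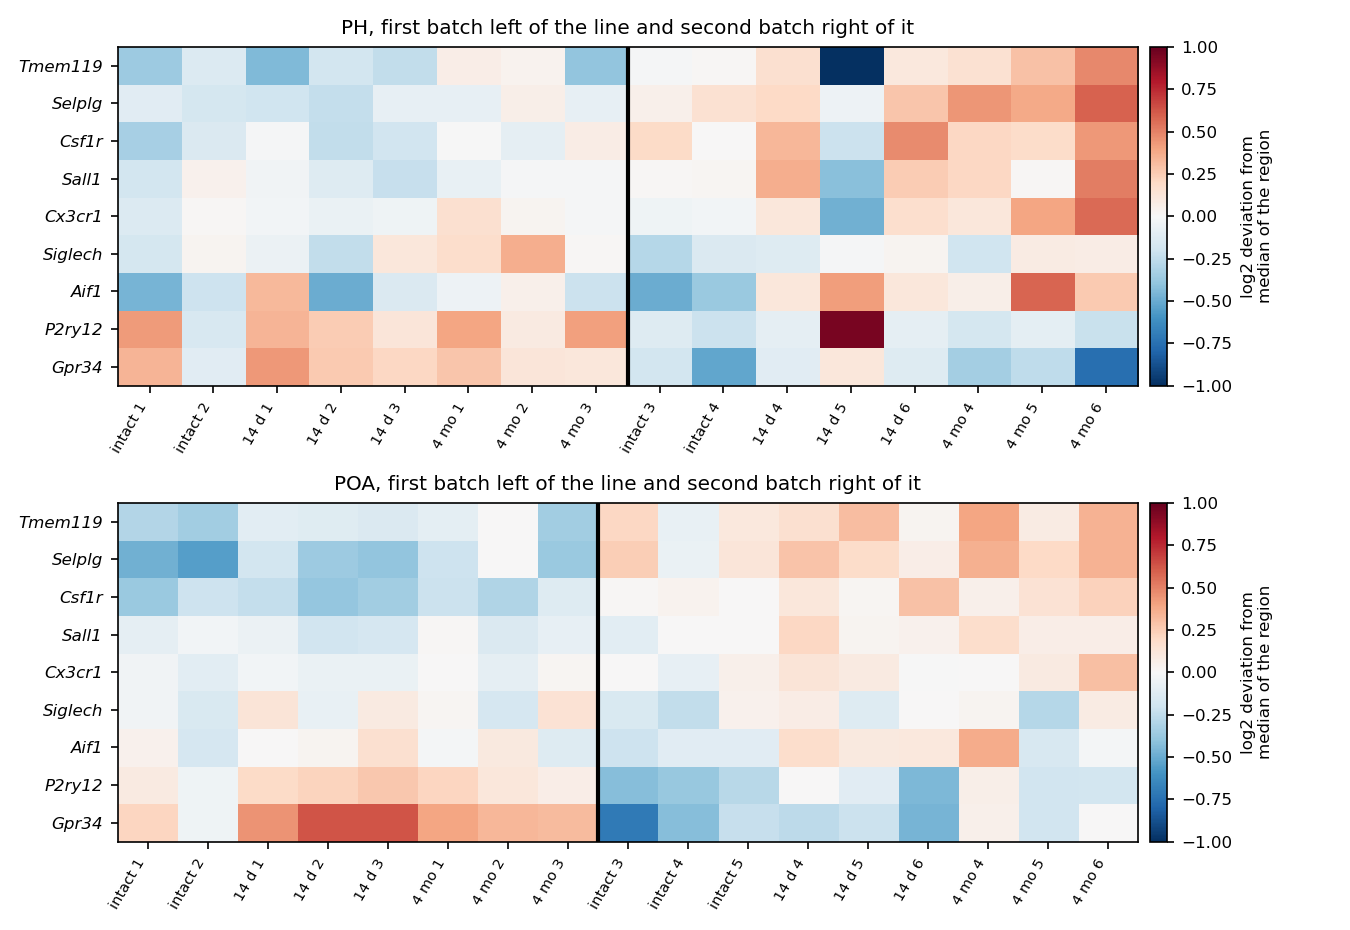
Log2 deviation of each gene from its median in the region, 1 column per library, PH above and POA below, with the first batch left of the line and the second right of it. *P2ry12* and *Gpr34* are mostly above their medians in the first batch and below in the second, the reverse of *Selplg* and *Csf1r*, and replicate 5 at 14 days in the PH departs from its batch (colors are capped at 1 in either direction).

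Ligands and partners of the members were read from a list of 6 genes. *Csf1*, the ligand of CSF1R, had a log2 fold change at 4 months of 0.34 ± 0.12 in the PH (SE, limma adjusted *P* = 0.636) and 0.33 ± 0.077 in the POA (SE, limma adjusted *P* = 0.133). It was 936 to 1312 in intact PH libraries and 1097 to 1606 at 4 months. *Cx3cl1*, the fractalkine gene, was at -0.15 ± 0.052 in the POA (SE, limma adjusted *P* = 0.385), where its receptor gene *Cx3cr1* was at 0.11. *Tgfb1* was at 0.38 ± 0.14 in the PH (SE, limma adjusted *P* = 0.677). Of this list, 0 of 6 genes were called in the PH and 0 of 5 tested in the POA.

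Of 36 further microglial genes, 30 had a log2 fold change above 0 in the PH at 4 months (median, 0.22) and 29 in the POA (median, 0.18). At an unadjusted *P* under 0.05, 12 and 18 were higher and 1 and 1 lower. Over all genes, 47.1% (PH) and 46.4% (POA) were above 0. At that unadjusted *P*, 2.97% and 4.08% of all genes were higher and 3.13% and 4.42% lower. The gene lists were read only in the fit with SV1, so their dependence on the covariate was not examined. Of the 36 genes, 1 was called, *C1qa* of the complement C1q complex in the POA, against 0.0802% of all genes called higher. It was at 0.44 ± 0.079 (SE, limma adjusted *P* = 0.0427), with 947 to 1319 in intact mice and 1111 to 1813 at 4 months. In the PH *C1qa* was at 0.40 ± 0.084 (SE, limma adjusted *P* = 0.138). *Ctss*, the lysosomal protease cathepsin S, was 2242 to 3148 in intact PH libraries and 3019 to 3960 at 4 months, with 0.46 ± 0.092 (SE, limma adjusted *P* = 0.113), and was at 0.34 ± 0.073 in the POA (SE, limma adjusted *P* = 0.0926). At 14 days the medians of these 36 genes were 0.10 in the PH (28 above 0) and 0.068 in the POA (27 above 0).

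Of 22 genes of activated microglia, 18 were tested in each region, and *Ccl4* and *Tnf* were near the floor in every library. At 4 months 13 were above 0 in the PH (median, 0.092; 2 higher at an unadjusted *P* under 0.05) and 11 in the POA (median, 0.12; 3 higher), and 0 were called. The largest was *Lgals3* (galectin-3) in the POA, 69 to 99 in intact mice and 83 to 212 at 4 months, at 0.77 ± 0.21 (SE, limma adjusted *P* = 0.247). *Gpnmb* in the PH was 64 to 131 in intact mice and 136 to 189 at 4 months, at 0.69 ± 0.24 (SE, limma adjusted *P* = 0.636). *B2m*, of MHC class I, was at 0.46 ± 0.14 in the PH (SE, limma adjusted *P* = 0.510), and *Apoe*, of lipid transport, at 0.21 ± 0.065 in the POA (SE, limma adjusted *P* = 0.324).

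**Figure D5:**
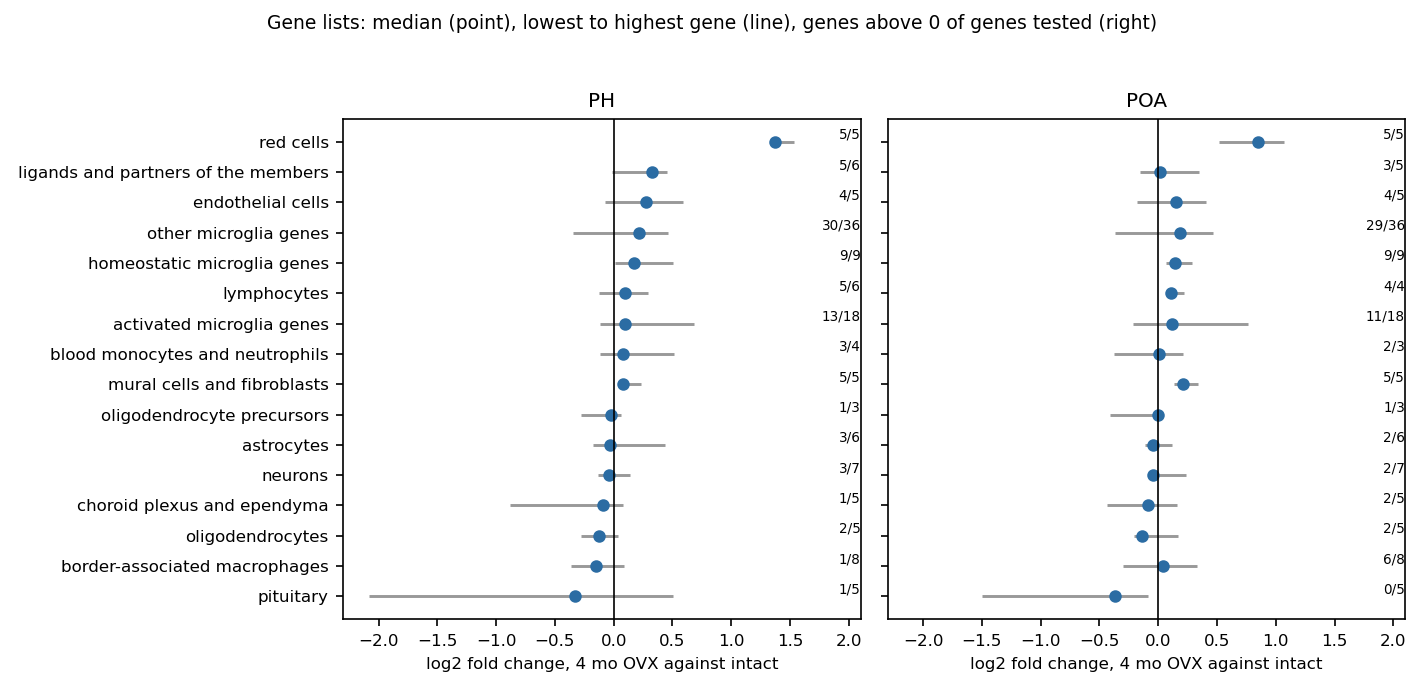
Log2 fold change at 4 months against intact mice for each gene list in the PH (left) and POA (right), as the median (point) and the range from the lowest to the highest gene (line), with the number of genes above 0 of those tested at the right. The homeostatic microglia genes lie above 0 (9 of 9 in both regions), and the red-cell genes have the highest median.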

How the data were processed

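RNA from the PH and POA of intact and OVX WT female mice was sequenced as stranded poly(A) libraries (33 libraries). The authors pseudoaligned the reads with kallisto to mouse transcripts (mm39), summarized the estimates per gene with tximport, and used DESeq2 with 1 surrogate variable, per the study's methods. The deposited table holds a normalized signal per gene on a linear scale, with most undetected genes near 22.4. How this signal was derived from the counts is not given in the sources used here, and depth is unknown, so no count test was run and precision rests on the number of libraries. Of 42824 entries, 1259 without a name were left out.

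Values were log2 transformed without a pseudocount. Genes with at least 2 times the floor in at least 4 (PH) or 5 (POA) libraries were tested with limma 3.58.1 (R 4.3.3; trend and robust options) on the 3 groups of a region plus SV1, a surrogate variable estimated in 5 rounds, with Benjamini-Hochberg adjustment over all genes tested and a threshold of 0.05. The surrogate variable and fit were tested on simulated data in which the hidden factor followed the batches. SV1 in the PH was instead dominated by replicate 5 at 14 days, and that setting was not simulated. GC content, lengths and positions came from GENCODE M39 on GRCm39, and promoter sequences from RefSeq. Gene lists covered ligands and partners, other and activated microglia, border-associated macrophages, blood monocytes and neutrophils, lymphocytes, red cells, neurons, astrocytes, oligodendrocytes and their precursors, endothelial and mural cells, choroid plexus with ependyma, and pituitary. Genes named beside the members were drawn from the list genes called in any comparison. Others were among the 2 genes of each list with the smallest *P* at 4 months in each region. The 5 protein-coding genes most correlated with the member mean in each region were also named. *Ccl4*, *Tnf*, *Retnlg*, *Nkg7* and the host genes were named after their values were seen. The members and lists were chosen with earlier results of these data known. Alternatives covered the covariate, filter, scaling, batches, replicate block and each library left out.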

Additional observations from a re-analysis of the deposited data

Results flagged for a closer look

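Among 54 groups of 4 to 6 libraries, of which chance alone gives about 1 in 20, 3 held a library far from the others, all in the PH. *P2ry12* in replicate 1 of the intact group was 2107, with the nearest library at 1432 (gap over range, 0.871; critical value, 0.829). *Sall1* in the same library was 1056, below the nearest at 1215 (0.873; critical value, 0.829). *Cx3cr1* in replicate 5 at 14 days was 1316, below the nearest at 1760 (0.648; critical value, 0.625).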

How the results depend on the processing

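The number of members called at an adjusted *P* under 0.05 was 0 in every comparison between groups under every alternative run. In the PH at 14 days, the log2 fold change turned negative for *Tmem119* (-0.21), *Cx3cr1* (-0.0084) and *Sall1* (-0.0047) with batch in place of SV1 and, with the same values, without a covariate. Within the first batch it was negative for *Tmem119* (-0.039), *Sall1* (-0.060) and *Selplg* (-0.028), within the second for *Tmem119* (-0.38) and *Cx3cr1* (-0.033), and after removal of the GC trend without a covariate for *Tmem119* (-0.086) and *Cx3cr1* (-0.015). *Gpr34* in the PH at 4 months was at -0.021 with batch in place of SV1 or no covariate, -0.0034 with both SV1 and batch, -0.098 within the second batch, and between -0.099 and 0.11 with single libraries left out, negative without replicate 1, 2 or 3 at 4 months or intact replicate 4. Within the first batch of the POA, *Csf1r* (-0.036) and *Sall1* (-0.080) at 14 days, *Sall1* at 4 months (-0.012) and the member median of 4 months against 14 days (-0.024) were negative. After removal of the GC trend the batch difference was -0.0043 for *Tmem119* (PH) and 0.050 for *Siglech* (POA). For *Aif1* (POA) it lay between -0.023 and 0.062 with single libraries left out, negative without replicate 4 at 4 months.

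With single libraries left out, the median difference between regions lay between -0.035 and 0.018 at 14 days and between -0.016 and 0.039 at 4 months, and 3 to 6 members were higher in the PH at 4 months (3 without PH replicate 3 at 4 months). Members at an unadjusted *P* under 0.05 numbered 0 to 2 at 14 days and 2 to 4 at 4 months for the PH. For the POA they numbered 2 to 4 (4 without 14-day replicate 6) and 3 to 6 (3 without intact replicate 2). Same-numbered libraries of a region deviated together (correlation over 0.1) in 9 of 14 PH pairs and 14 of 16 POA pairs. Their median correlations were 0.155 and 0.257, against -0.0516 and -0.157 for libraries of different numbers. These medians do not separate number from batch, since most same-numbered pairs shared a batch. Within POA batches, same-numbered pairs were at 0.108 to 0.392 and different-numbered ones at -0.0307 to 0.428. Same-numbered pairs across the batches were at -0.264 and -0.309 in the POA and at -0.0469 and -0.110 in the PH. Since not every pair exceeded 0.1 and no label says what the numbers share, they were not treated as pairs. With the replicate block, the member medians at 14 days and 4 months were 0.076 and 0.15 for PH libraries, 0.15 and 0.11 for POA libraries, and -0.067 and 0.021 for the difference between regions. With the block, *Selplg* in the PH at 14 days (-0.046) and *Siglech* in the POA at 4 months (-0.0078) were negative, and *Gpr34* in the PH at 14 days was at 0.34. The cause of these changes was not tested.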

Other observations

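The protein-coding genes whose log2 values ran most like the mean of the 9 members across the 16 PH libraries were *Ctsz* (Pearson's *r*, 0.911), *Mpeg1* (0.892), *Irak2* (0.865), *Adgre1* (0.853) and *Pmf1* (0.84), against a median of 0.0373 over 16046 genes. *Ctsz* encodes a lysosomal protease, *Mpeg1* a pore-forming protein of macrophages and *Adgre1* the macrophage antigen F4/80. Within the batches, *Ctsz* stood at 0.722 in the first and 0.967 in the second (8 libraries each). Across the 17 POA libraries they were *Tyrobp* (0.806), an adaptor of microglial receptors, *Pcdhgb2* (0.795), *Xpnpep3* (0.788), *Itgam* (0.786), the integrin CD11b, and *B3gnt6* (0.784), against a median of 0.000847 over 15867 genes. The libraries share group and batch, and the values are descriptions.

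Among the other cell types at 4 months, median log2 fold changes in the PH and POA were -0.042 and -0.044 for 7 genes of neurons, -0.034 and -0.045 for 6 of astrocytes, -0.13 and -0.14 for 5 of oligodendrocytes, and -0.020 and -0.0021 for 3 of their precursors. None of these genes was called by limma. Of the 6 astrocyte genes, 3 were above 0 in the PH. The highest was *Gfap*, at 0.44 ± 0.21 (SE, limma adjusted *P* = 0.820), with 6387 to 9864 in intact mice and 6325 to 14129 at 4 months. *Gpr17*, a receptor of oligodendrocyte precursors, was at -0.41 ± 0.085 in the POA (SE, limma adjusted *P* = 0.0727). Medians were -0.088 and -0.088 for choroid plexus and ependyma and -0.33 and -0.36 for pituitary genes. Border-associated macrophages had a median of 0.039 in the POA, blood monocytes and neutrophils 0.083 and 0.0076, lymphocytes 0.099 and 0.10, and mural cells and fibroblasts 0.081 in the PH. The blood-cell medians rested on the genes tested, 4 (PH) and 3 (POA) of monocytes and neutrophils and 6 and 4 of lymphocytes.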
